A study of Mus musculus with 8 samples.

Results

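Matrix metalloproteinases and their tissue inhibitors were followed through the cells of the mouse ascending thoracic aorta as a set of 9 genes of 32285 in the count matrix: the metalloproteinases Mmp2, Mmp3, Mmp11, Mmp14 and Mmp23 and the inhibitors Timp1, Timp2, Timp3 and Timp4. The 9 genes were picked by their symbols, with earlier results of these data known, and each symbol had 1 row in the matrix. Their UMIs (unique molecular identifiers, 1 per captured transcript) were summed over 4 groups of barcodes: 1395 fibroblasts, 699 endothelial cells, 74 macrophages and 6722 smooth muscle cells (SMC). They come from 9939 barcodes that passed the filter, out of 48467 in all.

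Metalloproteinases are zinc enzymes that cut the proteins of the extracellular matrix, among them collagens, elastin and proteoglycans. Most are made as inactive precursors that another protease must cut, and TIMPs bind the active enzymes and block them. TIMP2 also links the precursor of MMP2 to MMP14 on the cell surface, where MMP14 activates it. In the aortic wall these enzymes are known from remodelling and aneurysm, and TIMP3 is unusual among the inhibitors in that it stays bound to the matrix.

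The tissue came from 3 wild-type mice of 11, 12 and 13 weeks, and strain and sex are not given in the labels used here. All groups share the digestion with collagenase and elastase for 60 min at 37 °C and the removal of dead cells. Cells of each mouse were marked with 1 of 3 hashtag antibodies, and hashtags 1, 2 and 3 mark 11, 12 and 13 weeks, so every age is 1 animal and ages were not compared. UMIs were counted at the 3′ end, once per transcript whatever its length, so UMI levels were not divided by gene length. Whether transcripts of different genes were captured equally well was not tested, which limits comparisons between genes. The 4 gene expression libraries are merged in 1 matrix with a single barcode suffix, no barcode is listed more than once, and a barcode shared between libraries cannot be recognised.

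A barcode was kept with at least 500 genes, at most 20% mitochondrial UMIs and under 10 haemoglobin UMIs. SMC had at least 1.5% of their UMIs in Acta2, Tagln and Myh11, fibroblasts at least 0.3% in Dcn, endothelial cells at least 3 UMIs of Pecam1, Cdh5 and Gpihbp1, and macrophages at least 3 UMIs of C1qa, C1qb and C1qc; 426 barcodes in several groups were left out and 623 were in none. Depth differed, with a median of 4531 UMIs in fibroblasts, 2599 in endothelial cells, 3044.5 in macrophages and 7315.5 in SMC. Marker genes that the rule did not use fitted the names: the fibroblast list (such as Col1a1, Pdgfra and Lum) summed to 15611 CPM (counts scaled to the total of all gene UMIs) in fibroblasts and 871 CPM in SMC, the endothelial list to 4014 CPM in endothelial cells and 16.0 CPM in SMC, and the macrophage list to 9905 CPM in macrophages and 7.90 CPM in SMC. The SMC list (such as Cnn1 and Mylk) summed to 5594 CPM in SMC, and still to 609, 949 and 759.8 CPM in fibroblasts, endothelial cells and macrophages. A mesothelial list (Msln, Upk3b, Lrrn4 and Wt1) summed to 124 CPM in fibroblasts and 3.67 CPM in SMC. In the fibroblasts called for hashtags 1, 2 and 3, which the tests use, it summed to 294, 467 and 201 CPM. Its part in the fibroblast levels was not tested.

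Tests used sums of counts over barcodes with a single hashtag, 3 sums per group, and such a call was available for 20.3% of fibroblasts, 74.8% of endothelial cells, 78.4% of macrophages and 20.9% of SMC. No hashtag was called in 69.5% of fibroblasts and 67.3% of SMC. A second caller gave the same hashtag for 38.2% of the called fibroblasts and 37.8% of the called SMC, and gave none of them another hashtag. The animal behind a fibroblast or SMC is therefore less certain than behind an endothelial cell (92.5%). The second caller gave a single hashtag to 142 fibroblasts and 699 SMC, against 283 and 1407 with the first. In endothelial cells and macrophages it called more, 604 and 72 against 523 and 58. As a view of RNA outside cells, 3342 barcodes under 500 genes were summed, with haemoglobin left out of their totals. They held 384 CPM of Timp3, 232 CPM of Timp2, 49.8 CPM of Mmp23, 32.0 CPM of Mmp3, 16.7 CPM of Mmp2, 14.0 CPM of Timp4, 9.89 CPM of Timp1, 8.18 CPM of Mmp14 and 1.70 CPM of Mmp11. A level near or below these values cannot be told from background by its sum alone. The values are not a floor, as some levels of the 4 groups lie under them. How much outside RNA a barcode of a group holds was not tested.

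Fibroblasts held the highest pooled level of 8 of the 9 genes, and Timp4 was the endothelial one. Of the 8 members with enough counts for a test, 7 were higher and 1, Timp4, was lower in fibroblasts than in SMC (edgeR quasi-likelihood test, adjusted p under 0.05). The background is wide: 38.9% of the 8302 genes tested were called in this comparison, 20.9% higher and 18.0% lower in fibroblasts. The median log2 fold change of the 8 members was 2.13, and that of all genes tested was 0.03. Metalloproteinases outside the set did not share this: of 5 tested, 1 was higher, 1 lower and 3 not called, with a median of -1.04. Mmp11 had too few counts and entered no test. Gene coordinates are those of RefSeq on GRCm38.p6, the assembly that mm10 stands for. In such sums, fewer expressing cells and less RNA per cell cannot be told apart, which holds for every level below.

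**Figure D1:**
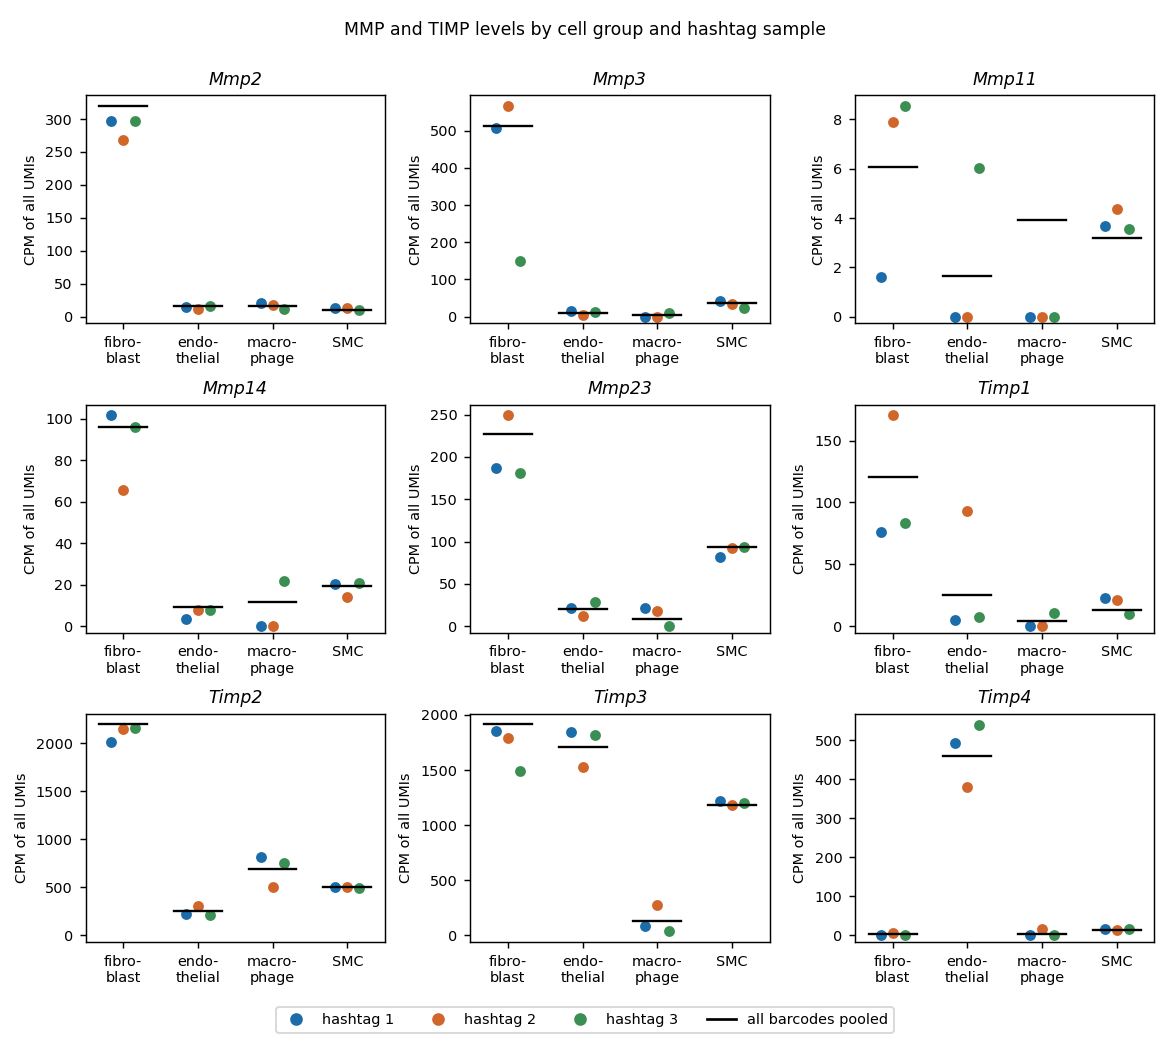
Level of each of the 9 genes in CPM of all UMIs, by cell group. Points are the 3 hashtag samples and lines the pooled level of all barcodes of the group; fibroblasts lead for 8 genes, such as Mmp2 at 320.5 CPM pooled against 10.7 CPM in SMC, and endothelial cells for Timp4 at 459.9 CPM.

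Promoters are shown for 2 pairs of members that changed in the same direction between 2 kinds of fibroblasts, Mmp3 with Timp1 and Mmp14 with Timp2. They are RefSeq sequences of build GRCm38.p6, 250 bases before and 50 after the start of the gene, 5′ to 3′ along the gene: Mmp3 at chr9:7445572-7445871, plus strand, Timp1 at chrX:20869916-20870215, plus strand, Mmp14 at chr14:54431348-54431647, plus strand and Timp2 at chr11:118355362-118355661, minus strand. Capitals mark matches, on either strand, to motifs. The AP-1 motif was searched as TGANTCA. The TATA box was searched as TATAAA. The GC box, bound by Sp1, was searched as GGGCGG. The motif of ETS factors was searched as CCGGAA, and no match overlapped one of another motif.
Mmp3: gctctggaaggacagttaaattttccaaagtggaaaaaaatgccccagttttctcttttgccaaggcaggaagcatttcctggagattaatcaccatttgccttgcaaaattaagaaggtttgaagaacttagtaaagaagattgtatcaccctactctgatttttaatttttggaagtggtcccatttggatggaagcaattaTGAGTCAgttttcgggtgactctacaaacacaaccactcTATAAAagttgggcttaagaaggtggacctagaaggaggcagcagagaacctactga
Timp1: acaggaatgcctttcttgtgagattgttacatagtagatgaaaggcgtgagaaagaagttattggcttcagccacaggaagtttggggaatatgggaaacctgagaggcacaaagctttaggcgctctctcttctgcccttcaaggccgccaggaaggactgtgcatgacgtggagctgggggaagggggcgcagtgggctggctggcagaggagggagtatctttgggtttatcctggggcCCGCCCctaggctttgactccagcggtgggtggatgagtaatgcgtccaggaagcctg
Mmp14: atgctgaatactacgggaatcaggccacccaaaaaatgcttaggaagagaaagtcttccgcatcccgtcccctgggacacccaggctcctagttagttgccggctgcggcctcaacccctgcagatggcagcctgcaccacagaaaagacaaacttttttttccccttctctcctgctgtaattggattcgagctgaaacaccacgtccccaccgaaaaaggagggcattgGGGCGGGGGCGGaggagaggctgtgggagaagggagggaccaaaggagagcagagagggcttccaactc
Timp2: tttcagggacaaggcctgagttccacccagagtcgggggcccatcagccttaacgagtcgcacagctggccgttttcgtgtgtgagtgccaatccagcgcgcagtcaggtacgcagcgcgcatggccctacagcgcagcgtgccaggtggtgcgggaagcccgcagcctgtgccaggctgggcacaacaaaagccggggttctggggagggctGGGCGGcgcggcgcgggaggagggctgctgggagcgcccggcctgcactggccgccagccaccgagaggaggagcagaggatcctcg

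Among these 4 windows, the Mmp3 promoter held the AP-1 and TATA letters and no GC box, and the Timp1, Mmp14 and Timp2 promoters held GC boxes and neither of the other letters. Of 8 members with a promoter in the table, 1 held the AP-1 letters, 1 the TATA box, 6 the GC box and 0 the ETS letters. Over all 32851 promoters of the table, these shares were 7.81%, 13.6%, 35.7% and 14.9%. A match is a description of the letters only, and Mmp3 and Timp1, which changed in the same direction, shared none of them. 

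Mmp2 (ENSMUSG00000031740, chr8:92827290-92853421), the gelatinase that cuts denatured collagen and collagen IV, had 297, 268 and 297 CPM in the fibroblasts of hashtags 1, 2 and 3, 14.6, 11.6 and 16.5 CPM in endothelial cells, 20.9, 17.5 and 10.9 CPM in macrophages and 13.3, 13.4 and 10.1 CPM in SMC. Fibroblasts stood above all other groups in every animal, and the other 3 groups overlapped. The log2 fold change of fibroblasts over SMC was 4.52 ± 0.16 (SE, edgeR adjusted p = 9.3e-30), or 3.84 with the second hashtag caller. That of endothelial cells over SMC was 0.14 ± 0.32 (edgeR adjusted p = 0.752). At least 1 UMI was seen in 66.6% of fibroblasts, against 4.01% of endothelial cells, 5.41% of macrophages and 6.68% of SMC. The endothelial and SMC levels, 15.6 and 10.7 CPM pooled, did not exceed the 16.7 CPM of barcodes under 500 genes.

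Mmp3 (ENSMUSG00000043613, chr9:7445822-7455975), stromelysin-1, which cuts proteoglycans, laminin and fibronectin and activates other metalloproteinases, had 507, 567 and 149.6 CPM in fibroblasts, 16.2, 3.87 and 12.0 CPM in endothelial cells, 0, 0 and 10.9 CPM in macrophages and 41.2, 34.8 and 24.5 CPM in SMC. Fibroblasts of hashtag 3 were far below those of hashtags 1 and 2, and SMC of hashtag 3 were the lowest SMC. Fibroblasts stayed above SMC, and SMC above endothelial cells, without overlap. Mmp3 was higher in fibroblasts than in SMC, with a log2 fold change of 3.48 ± 0.16 (edgeR adjusted p = 1.7e-24), or 4.08 with the second hashtag caller. It was lower in endothelial cells than in SMC (-1.69 ± 0.35, edgeR adjusted p = 6.1e-05), a call lost with the second hashtag caller (-0.81, edgeR adjusted p = 0.0576). That value was -4.70 at 10% mitochondrial and 1000 UMIs and -2.74 at a hashtag quantile of 0.95. Beside the fibroblast markers Lum, Dpt, Pdgfra and Serpinf1, fibroblasts held 0.117 Mmp3 UMIs per marker UMI, SMC 0.563 and barcodes under 500 genes 0.168. The pooled SMC level of 36.0 CPM was near the 32.0 CPM of barcodes under 500 genes.

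Mmp3 UMIs sat in few cells. Only 415 of 1395 fibroblasts had any, 106 of them had 10 or more UMIs, up to 94 in 1 barcode, and these 106 held 71.5% of all fibroblast Mmp3 UMIs. In SMC, 28 of 6722 barcodes held 29.5% of the Mmp3 UMIs. Mmp2, with 2167 UMIs in all against 3460 of Mmp3, reached 10 UMIs in 4 fibroblasts but was seen in 929.

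Mmp11 (ENSMUSG00000000901, chr10:75923221-75932502), stromelysin-3, which furin activates inside the cell, was close to the limit of detection, with 41 UMIs in fibroblasts, 4 in endothelial cells, 1 in macrophages and 160 in SMC. The pooled levels were 6.06, 1.64, 3.94 and 3.21 CPM in that order. The pooled fibroblast level was 1.89 times that of SMC (95% exact interval 1.31 to 2.68, counting error only). Fibroblast values of the hashtags, 1.61, 7.87 and 8.55 CPM, overlapped those of SMC, 3.68, 4.35 and 3.53 CPM, with hashtag 1 of the fibroblasts below all 3 SMC sums.

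Mmp14 (ENSMUSG00000000957, chr14:54431598-54442456), the membrane-bound collagenase that activates the MMP2 precursor, had 102, 65.6 and 96.2 CPM in fibroblasts, 3.24, 7.74 and 7.52 CPM in endothelial cells, 0, 0 and 21.8 CPM in macrophages and 20.1, 14.1 and 20.9 CPM in SMC. All fibroblast sums lay above all SMC sums, and these above all endothelial sums; fibroblasts were above SMC by a log2 fold change of 2.22 ± 0.20 (edgeR adjusted p = 1.8e-13). Endothelial cells were below SMC, with a log2 fold change of -1.70 ± 0.40 (edgeR adjusted p = 2.8e-04), a call lost at 10% mitochondrial and 1000 UMIs (-0.95, edgeR adjusted p = 0.11). The endothelial level of 9.03 CPM pooled was close to the 8.18 CPM of barcodes under 500 genes.

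Mmp23 (ENSMUSG00000029061, chr4:155650655-155654539), a metalloproteinase anchored by its N-terminal part and cut loose by proprotein convertases, was the one metalloproteinase of the set with a high level in muscle. It had 187, 249 and 182 CPM in fibroblasts, 21.1, 11.6 and 28.6 CPM in endothelial cells, 20.9, 17.5 and 0 CPM in macrophages and 82.2, 92.7 and 94.1 CPM in SMC. The fibroblast, SMC and endothelial sums did not overlap. A UMI was seen in 60.1% of fibroblasts and 46.8% of SMC, and after thinning every barcode to 1000 UMIs in 20.8% and 9.21%. Fibroblasts were higher than SMC by 1.15 ± 0.14 on the log2 scale (edgeR adjusted p = 1.4e-09), and endothelial cells were lower than SMC, with a log2 fold change of -2.19 ± 0.23 (edgeR adjusted p = 4.6e-12). The gene overlaps Mib2 on the same strand, so reads of both genes may have been shared.

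Timp1 (ENSMUSG00000001131, chrX:20870166-20874737), the soluble inhibitor known for its induction by injury and cytokines, had 75.9, 171 and 83.3 CPM in fibroblasts, 4.87, 92.9 and 7.52 CPM in endothelial cells, 0, 0 and 10.9 CPM in macrophages and 22.8, 20.7 and 9.51 CPM in SMC. Fibroblasts were above SMC in every animal, with a log2 fold change of 2.50 ± 0.27 (edgeR adjusted p = 3.1e-11), or 3.82 with doubled group thresholds. Among endothelial cells hashtag 2 stood apart, and a single barcode with 43 of the 62 pooled UMIs made this value. Without that barcode, a step added after the data were seen, the pooled endothelial level was 7.84 CPM (95% exact interval 4.72 to 12.2), against 25.5 CPM with it. The endothelial difference from SMC followed it: 0.64 ± 0.35 with all animals (edgeR adjusted p = 0.124), -1.45 without hashtag 2 (edgeR adjusted p = 0.0144), and 1.37 without hashtag 1 (edgeR adjusted p = 4.1e-04). Timp1 overlaps Syn1 on the opposite strand, and Syn1 had 8 UMIs in fibroblasts and 42 in SMC.

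Timp2 (ENSMUSG00000017466, chr11:118301061-118355411), the inhibitor that also takes part in MMP2 activation, had more UMIs in fibroblasts than any other member. It had 2010.1, 2147 and 2158 CPM in fibroblasts, 227, 304 and 209 CPM in endothelial cells, 817, 507 and 753 CPM in macrophages and 507, 501 and 492 CPM in SMC. Fibroblasts were highest and endothelial cells lowest in every animal, with macrophages at or above SMC. The endothelial values lay around the 232 CPM of barcodes under 500 genes. Most of that group, 601 barcodes, had more Gpihbp1 than Vwf UMIs, with a mean of 116 CPM over the hashtags. The 63 with more Vwf had a mean of 813 CPM, above the SMC values, and were not tested against SMC. Fibroblasts were above SMC by 2.04 ± 0.11 on the log2 scale (edgeR adjusted p = 9.3e-22), and endothelial cells were below SMC, with -1.15 ± 0.13 (edgeR adjusted p = 4.0e-11). Macrophages did not pass the test against SMC (0.27 ± 0.17, edgeR adjusted p = 0.233), except when libraries were scaled by their totals alone (0.49, edgeR adjusted p = 0.0158). Macrophages were above endothelial cells by 1.42 ± 0.19 (edgeR adjusted p = 2.7e-08).

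Timp3 (ENSMUSG00000020044, chr10:86300412-86349505), the matrix-bound inhibitor that also blocks ADAM17 and ADAMTS proteases, was the broadest member, with 1855, 1793 and 1496 CPM in fibroblasts, 1841, 1530.4 and 1816 CPM in endothelial cells, 83.8, 279.8 and 43.6 CPM in macrophages and 1224, 1182 and 1205 CPM in SMC. Macrophages were far below the rest, and their pooled 134 CPM was under the 384 CPM of barcodes under 500 genes. Endothelial cells and fibroblasts overlapped, with a log2 fold change of -0.06 ± 0.12 for endothelial cells over fibroblasts (edgeR adjusted p = 0.745), though at 10% mitochondrial and 1000 UMIs the difference was called (-0.32, edgeR adjusted p = 0.0158). Both were modestly above SMC, fibroblasts by 0.47 ± 0.12 (edgeR adjusted p = 6.9e-04) and endothelial cells by 0.41 ± 0.11 (edgeR adjusted p = 0.00202). DESeq2 called neither (0.47, adjusted p = 0.211, and 0.40, adjusted p = 0.257). The fibroblast call was lost with the second hashtag caller (edgeR adjusted p = 0.0961) and the endothelial call without hashtag 1 (edgeR adjusted p = 0.117). Timp3 overlaps Syn3, which itself had 2822 UMIs in SMC and 559 in fibroblasts, and reads of this locus may belong to either gene.

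Timp4 (ENSMUSG00000030317, chr6:115244444-115252205), an inhibitor known from heart and vessels, was an endothelial gene here, with 492, 379 and 539.6 CPM in endothelial cells, 1.61, 5.25 and 2.14 CPM in fibroblasts, 0, 17.5 and 0 CPM in macrophages and 16.2, 13.1 and 17.1 CPM in SMC. Every endothelial sum was far above all sums of the other groups. Timp4 was higher in endothelial cells than in SMC by 4.81 ± 0.14 on the log2 scale (edgeR adjusted p = 1.2e-33). A UMI was seen in 56.8% of endothelial cells, against 1.72% of fibroblasts, 1.35% of macrophages and 8.88% of SMC. The SMC level of 14.2 CPM pooled was about that of barcodes under 500 genes (14.0 CPM), and fibroblasts with 24 UMIs were lower still: -2.51 ± 0.54 against SMC (edgeR adjusted p = 1.1e-04), from -3.17 without hashtag 2 to -1.88 without the haemoglobin filter.

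Read across the groups, endothelial cells differed from SMC in 6 of the 8 members tested: Timp3 and Timp4 were higher, and Mmp3, Mmp14, Mmp23 and Timp2 lower. For endothelial cells over SMC 51.5% of genes were called, 26.1% higher and 25.5% lower. Against fibroblasts, endothelial cells were higher in Timp4 and lower in 6 members, from -1.87 for Timp1 to -5.18 for Mmp3 on the log2 scale, where 38.0% of genes were called, 19.4% lower. The Timp1 value there was -3.65 without hashtag 2 (edgeR adjusted p = 4.3e-11) and -4.05 with doubled group thresholds, that of Mmp3 ran from -8.02 at 10% mitochondrial and 1000 UMIs to -4.52 without hashtag 2, and that of Timp4 from 6.66 without the haemoglobin filter to 8.01 without hashtag 2. The Timp1 call in that comparison was lost at 10% mitochondrial and 1000 UMIs (-1.24, edgeR adjusted p = 0.0553).

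Macrophages were nearly empty of the set apart from Timp2, with 4 Mmp2 UMIs, 3 of Mmp14, 2 of Mmp23 and 1 each of Mmp3, Mmp11, Timp1 and Timp4 in 74 barcodes. Such counts give wide limits: the pooled Mmp3 level of macrophages was 0.00769 times that of fibroblasts (95% exact interval 0.000195 to 0.0429), and that of Mmp23 was 0.0839 times that of SMC (0.0102 to 0.303). The test called 7 members lower in macrophages than in fibroblasts (background 26.1%, lower 15.6%), and 2, Timp3 and Mmp23, lower than in SMC (background 33.0%, lower 18.6%). Against endothelial cells, Timp2 was higher and Timp3 and Timp4 lower (background 23.4%, higher 9.59%, lower 13.8%). Timp3, with 34 UMIs in macrophages, had log2 fold changes of -3.96 ± 0.25 against fibroblasts (edgeR adjusted p = 6.7e-19) and -3.49 ± 0.25 against SMC (edgeR adjusted p = 8.7e-17). One barcode held 10 of these UMIs, and without hashtag 2 the values were -5.01 and -4.62. Mmp3, not called against SMC (edgeR adjusted p = 0.0585), was called lower in 5 of 12 alternatives, with adjusted p-values (edgeR or DESeq2) from 0.00988 to 0.254 over the 12.

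**Figure D2:**
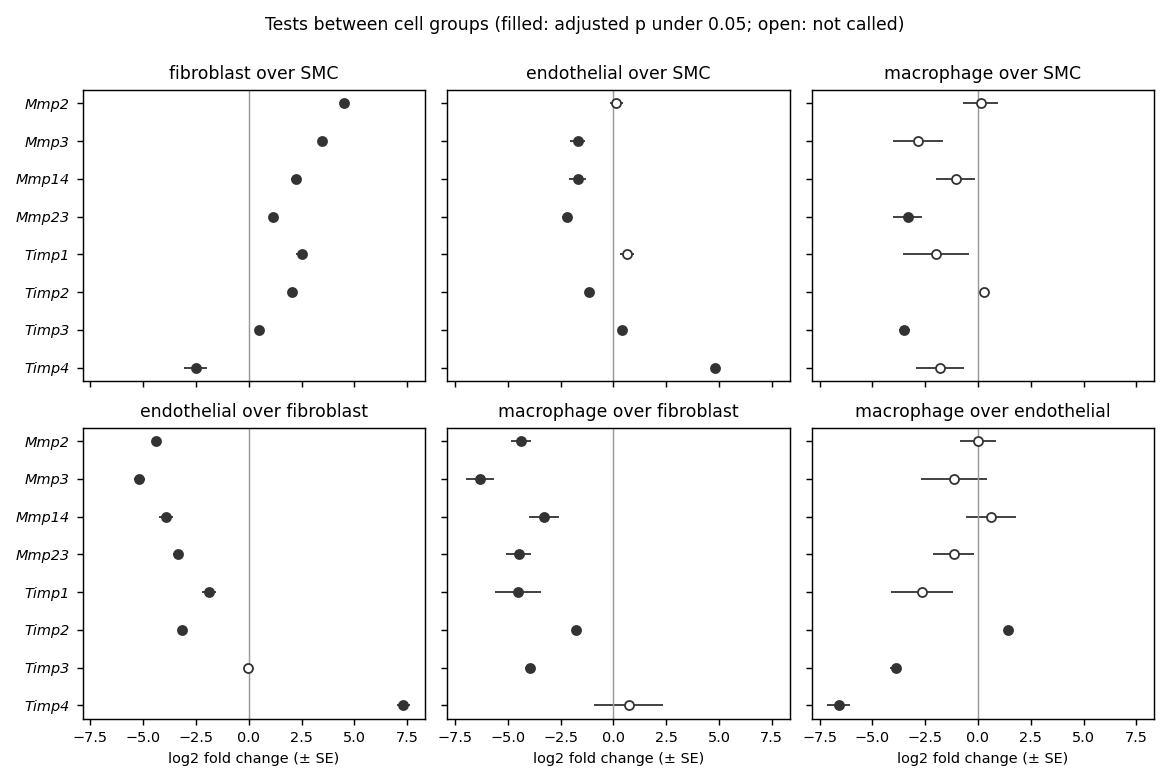
Log2 fold change of the 8 tested members (± SE, edgeR, 3 hashtag samples) in the 6 comparisons, first-named group over the second. Filled points passed an adjusted p of 0.05; the Timp4 point is at -2.51 for fibroblasts over SMC and at 7.32 for endothelial cells over fibroblasts, and fitted macrophage values of members with 1 to 4 UMIs have no precise size.

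Summed over the set, fibroblasts held 1161 CPM of the 5 metalloproteinases and 4242 CPM of the 4 inhibitors, and SMC held 163 and 1713 CPM. The number of TIMP UMIs per UMI of these 5 metalloproteinases was 3.65 in fibroblasts, 42.7 in endothelial cells, 19.2 in macrophages and 10.5 in SMC. Over hashtags 1, 2 and 3 this number was 3.60, 3.56 and 5.10 in fibroblasts and 11.0, 10.8 and 11.3 in SMC, without overlap. It counts captured transcripts, not enzyme, and was not tested. The endothelial number divides by only 57.5 CPM of the 5 metalloproteinases, each near or below its level in barcodes under 500 genes. The macrophage number divides by 43.3 CPM. Metalloproteinases outside the set are left out of these numbers. Macrophages held 58 Mmp12, 45 Mmp9 and 24 Mmp13 UMIs, endothelial cells 87 of Mmp15, fibroblasts 157 of Mmp19 and SMC 1349 of Mmp17. The order of the groups therefore holds for the 5 genes of the set only. The inhibitor mix also differed: Timp3 made 45.1% of TIMP UMIs in fibroblasts, 69.7% in endothelial cells, 16.1% in macrophages and 68.9% in SMC. The macrophage values rest on few counts, 11 UMIs of the 5 metalloproteinases in all. The macrophage Timp3 share was 9.30%, 34.8% and 5.41% over hashtags 1, 2 and 3.

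Within fibroblasts, 714 barcodes had more Pi16 and Clec3b UMIs, markers of adventitial fibroblasts, and 616 more Lum and Serpinf1 UMIs. The split used no member of the set, and 5 of the 7 members tested differed between the sides, where 15.3% of the 3552 genes tested were called, 8.61% higher and 6.73% lower on the Pi16 and Clec3b side. Timp2 and Mmp14 were higher on the Pi16 and Clec3b side, and Mmp3, Timp1 and Timp3 were lower, so the inhibitors differed in direction. Of the promoters in the table, the GC box stands in members of either direction, in Mmp14 and Timp2 and also in Timp1 and Timp3.

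Mmp3 had 160.4, 464 and 122 CPM on the Pi16 and Clec3b side and 924, 934 and 211 CPM on the Lum and Serpinf1 side, lower on the first in each of 3 animals although the sides overlap between animals (-1.56 ± 0.24, edgeR adjusted p = 1.1e-04); at 10% mitochondrial and 1000 UMIs it was -2.84. Timp1 had 32.1, 64.0 and 52.2 CPM on the Pi16 and Clec3b side and 116, 343 and 136 CPM on the Lum and Serpinf1 side, with no overlap (-1.94 ± 0.27, edgeR adjusted p = 3.5e-05). Hashtag 2 gave the highest Timp1 value on both sides. Timp3 had 1129, 1216 and 1427 CPM on the Pi16 and Clec3b side and 2743, 3187 and 1736 CPM on the Lum and Serpinf1 side (-1.01 ± 0.16, edgeR adjusted p = 1.1e-04). The sides are apart in all 3 animals, least in hashtag 3, and the Timp3 call was lost with DESeq2 (-1.02, adjusted p = 0.0506) and at 10% mitochondrial and 1000 UMIs (-0.67, edgeR adjusted p = 0.0818).

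In the other direction, Timp2 had 2486, 2661 and 2558 CPM on the Pi16 and Clec3b side and 1527, 1648 and 1513 CPM on the Lum and Serpinf1 side (0.69 ± 0.10, edgeR adjusted p = 5.0e-05). Mmp14 had 135, 90.6 and 122 CPM on the Pi16 and Clec3b side and 74.0, 51.1 and 55.8 CPM on the Lum and Serpinf1 side (0.92 ± 0.27, edgeR adjusted p = 0.0237). Values of both genes did not overlap between the sides, but the Mmp14 call was lost in 6 of 10 alternatives, among them leaving out any 1 hashtag, where the log2 fold change stayed between 0.85 and 0.96. Mmp2 (-0.28 ± 0.17, edgeR adjusted p = 0.355) and Mmp23 (0.35 ± 0.20, edgeR adjusted p = 0.293) did not pass. The pericyte list summed to 295 CPM on the Pi16 and Clec3b side and 666 CPM on the Lum and Serpinf1 side, and its part in these differences was not tested.

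**Figure D3:**
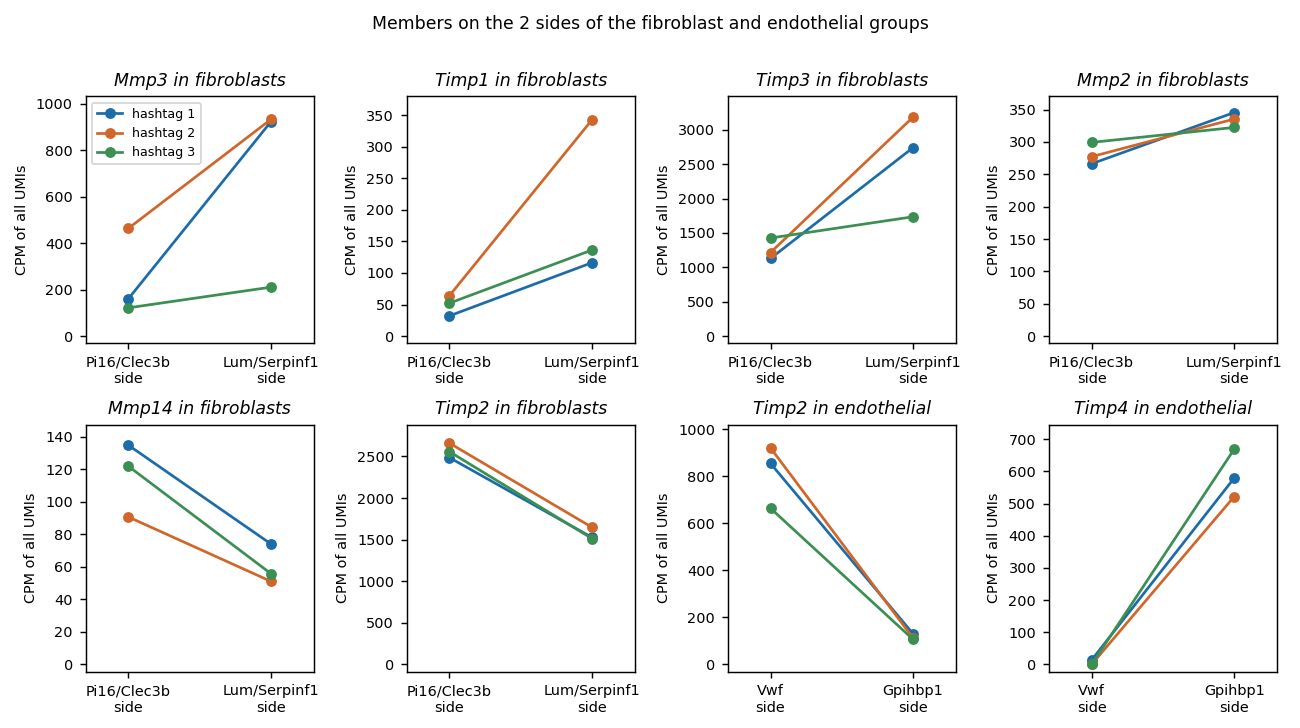
CPM of 6 members on the Pi16 and Clec3b side and the Lum and Serpinf1 side of fibroblasts, and of Timp2 and Timp4 on the Vwf side and the Gpihbp1 side of endothelial cells. Lines join the sums of 1 hashtag sample; Timp4 is at 13.8, 0 and 0 CPM on the Vwf side and at 579.7, 522 and 669 CPM on the Gpihbp1 side.

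Endothelial cells with more Vwf than Gpihbp1 UMIs (63 barcodes), as in large vessels, were set against 601 with more Gpihbp1, a capillary gene. Of 3 members with enough counts, Timp2 was higher, Timp4 lower and Timp3 not called, where 23.8% of the 4080 genes tested were called, 12.8% higher and 10.9% lower. Timp4 had 1 UMI on the Vwf side and 1106 UMIs on the Gpihbp1 side, 2.69 against 579.7 CPM, a pooled ratio of 0.00464 (95% exact interval 0.000117 to 0.0259, counting error only; edgeR adjusted p = 1.9e-12). The gene was thus seen in 64.9% of Gpihbp1-side barcodes, and in 1 of 63 on the Vwf side.

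Timp2 ran the other way, with 855, 920.3 and 664 CPM on the Vwf side and 129.9, 112 and 106 CPM on the Gpihbp1 side, a log2 fold change of 2.82 ± 0.22 (edgeR adjusted p = 9.9e-12). The Gpihbp1-side level was below the 232 CPM of barcodes under 500 genes. All Vwf-side values lay above the Timp2 values of SMC, though the endothelial group as a whole lay below them. Timp3 had 1268, 1598 and 1376 CPM on the Vwf side and 1937, 1502 and 1925 CPM on the Gpihbp1 side (-0.31 ± 0.18, edgeR adjusted p = 0.252), and overlapped; without hashtag 2 it was called lower on the Vwf side (-0.58, edgeR adjusted p = 0.00703). Mmp2, not tested, had 20 UMIs on the Vwf side and 12 on the Gpihbp1 side, or 53.8 and 6.29 CPM. Lymphatic markers (Prox1, Lyve1, Ccl21a, Mmrn1) summed to 868 CPM on the Vwf side and 250.02 CPM on the Gpihbp1 side, and Lum to 191 and 21.0 CPM; their part in these differences was not tested.

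SMC could not be divided as planned, because only 46 of 6722 barcodes had more Tnnt2 and Ptprz1 than Pln and Mgp UMIs, 3, 4 and 4 of them with a hashtag. After the data were seen, SMC were instead divided at the median share of Tnnt2 and Ptprz1 among the UMIs of the 4 genes, into 3357 Pln and Mgp rich and 3339 Tnnt2 and Ptprz1 rich barcodes, where 2.07% of the 9382 genes tested were called, 1.0% higher and 1.07% lower in Pln and Mgp rich SMC. Timp1 had 42.8, 32.9 and 9.11 CPM in Pln and Mgp rich SMC and 5.56, 10.2 and 9.84 CPM in Tnnt2 and Ptprz1 rich SMC, higher in hashtags 1 and 2 and not in hashtag 3 (1.72 ± 0.28, edgeR adjusted p = 6.6e-05). Mmp3 had 59.2, 36.5 and 39.0 CPM in Pln and Mgp rich SMC and 25.9, 33.0 and 14.1 CPM in Tnnt2 and Ptprz1 rich SMC (0.94 ± 0.17, edgeR adjusted p = 4.4e-04). The calls of Timp1 and Mmp3 were lost without hashtag 1 (edgeR adjusted p = 0.344 and 0.254), and DESeq2 gave no adjusted p for either gene. With the second hashtag caller Mmp3 turned to -0.10 (edgeR adjusted p = 0.968). Timp1 was 2.33 without hashtag 3 and 1.07 without the haemoglobin filter. The other 6 members tested did not pass, though Timp4 (0.66 ± 0.23, edgeR adjusted p = 0.156) was called without the haemoglobin filter (edgeR adjusted p = 0.029) and at a hashtag quantile of 0.95 (edgeR adjusted p = 0.032), and Timp3 and Timp2 were nearly level, at -0.06 ± 0.04 and 0.07 ± 0.05 on the log2 scale.

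The spread over barcodes set the members apart in a way the sums do not show. The top 5% of fibroblasts for each gene held 59.3% of Mmp3 UMIs, 48.7% of Timp1, 31.8% of Mmp14, 22.9% of Timp3, 22.2% of Mmp2, 21.1% of Mmp23 and 19.1% of Timp2. Timp1 resembled Mmp3 in this, with 6 fibroblasts of 10 or more UMIs holding 18.7% of its UMIs. Low counts alone make a gene look concentrated, and Mmp14 had 650 UMIs, Timp1 817 and Mmp3 3460, the last being well above Mmp2 at 2167.

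**Figure D4:**
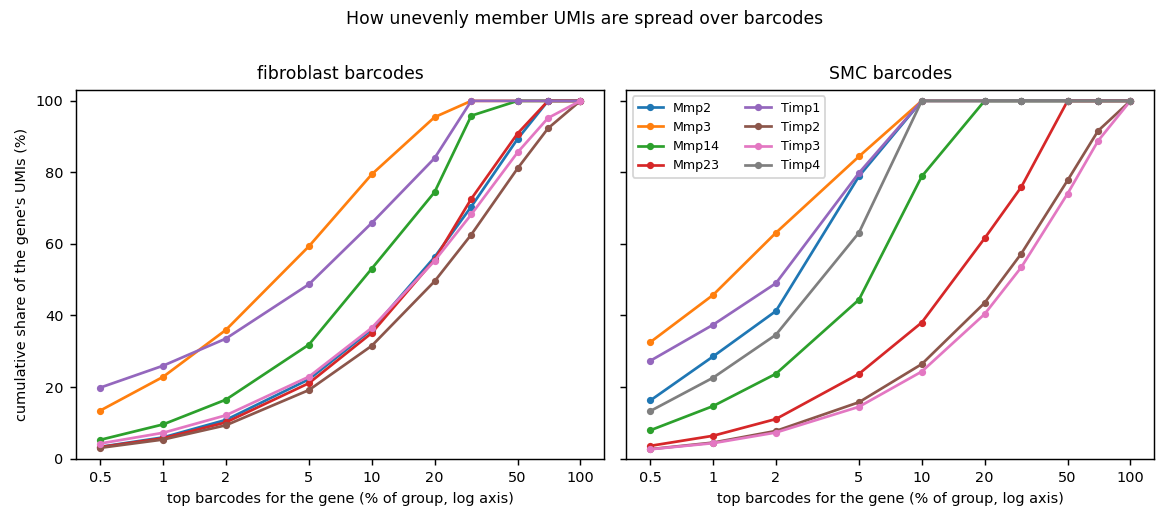
Cumulative share of each gene's UMIs held by its top barcodes, in fibroblasts and in SMC, against the share of barcodes on a log axis; Mmp11, and Timp4 in fibroblasts, are left out for low counts. In fibroblasts the top 1% of barcodes held 25.9% of Timp1, 22.8% of Mmp3 and 5.31% of Timp2 UMIs, and in SMC 37.4%, 45.7% and 4.46%.

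Members were also compared within single fibroblasts thinned to 1000 UMIs, as a description. Among 252 fibroblasts with a Mmp3 UMI, 16.7% had a Timp1 UMI, against 9.71% of the 1143 without. For Timp3 these shares were 77.4% and 67.1%, and for Mmp2 28.2% and 27.8%. Mmp2 and Mmp14, partners in activation, had like shares: 24.1% of the 116 fibroblasts with Mmp14 had Mmp2, against 28.2% of those without. Cells of 1 group are not replicates, and these shares carry no test.

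Over the 12 sums of 4 groups and 3 hashtags, the genes most like each member were listed by the Pearson correlation of log2(CPM + 10), across sums that share their animals and differ in depth. For Mmp2 they were Clec3b (1.00), Folh1 (0.99), Cpxm1 (0.99). For Mmp3 they were L3hypdh (0.97), Armh4 (0.97), Ccl19 (0.97), and for Mmp14 B3gnt9 (0.99), Etfbkmt (0.97), Lama2 (0.97). For Mmp23 they were Col6a1 (0.98), Col6a3 (0.98), Abcc9 (0.97), among them collagen VI chains. For Timp1 they were Tppp3 (0.93), Kdsr (0.92), Nhsl1 (0.92), for Timp2 Cd302 (0.99), Egfr (0.95), Rpl39 (0.95) and for Timp3 Cttn (0.98), Sparc (0.97), Hdgfl3 (0.97). For Timp4 they were Jag2 (0.98), Cd247 (0.98), Flt1 (0.98), where Flt1 is a VEGF receptor and Jag2 a Notch ligand. Between members, Mmp3 and Mmp14 were closest (0.91) and Timp2 and Timp4 farthest apart (-0.80).

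Beyond the set, 18 other metalloproteinase genes were counted, and most were near 0. Of those with at least 100 UMIs over the 4 groups, Mmp17 was highest in SMC, Mmp15 in endothelial cells, and Mmp19 and Mmp16 in fibroblasts, as most members were. Mmp17, a membrane-anchored enzyme, had 1349 UMIs in SMC (27.1 CPM) and was lower in fibroblasts (-2.47 ± 0.47, edgeR adjusted p = 1.6e-05) and endothelial cells (-2.49 ± 0.42, edgeR adjusted p = 1.6e-06) than in SMC. Mmp15, a membrane type enzyme, had 35.7 CPM in endothelial cells and 1.12 CPM in SMC (4.48 ± 0.42, edgeR adjusted p = 5.3e-13), with 0, 0 and 0 UMIs on the Vwf side and 24, 20 and 25 on the Gpihbp1 side. Mmp19 had 23.2 CPM in fibroblasts and 0.722 CPM in SMC (4.97 ± 0.59, edgeR adjusted p = 3.8e-10). Mmp16 had 14.5 CPM in fibroblasts and 10.9 CPM in SMC and entered no test between groups.

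Macrophages, low in the set itself, carried Mmp12, the macrophage elastase, with 58 UMIs in 10 barcodes (228 CPM). Mmp9, gelatinase B, had 45 UMIs in 20 barcodes (177 CPM) there, and Mmp13 had 24 UMIs in 11 barcodes (94.5 CPM). These genes were named after their values were seen. In SMC they had 5 UMIs (0.1 CPM), 38 UMIs (0.762 CPM) and 2 UMIs (0.04 CPM), in that order. Mmp13 entered no test between groups. Of the 5 metalloproteinases outside the set that were tested, 2 were higher and 1 lower in macrophages than in SMC. Of all genes tested, 14.4% were higher and 18.6% lower. The lower one, Mmp17, had 0 UMIs in macrophages. By hashtag, the macrophage Mmp12 UMIs were 4, 8 and 37 and those of Mmp9 10, 3 and 19. The dissociation genes (such as Fos, Jun and Hspa1a) summed to 2535 CPM in macrophages and 944 CPM in SMC, and their part was not tested.

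**Figure D5:**
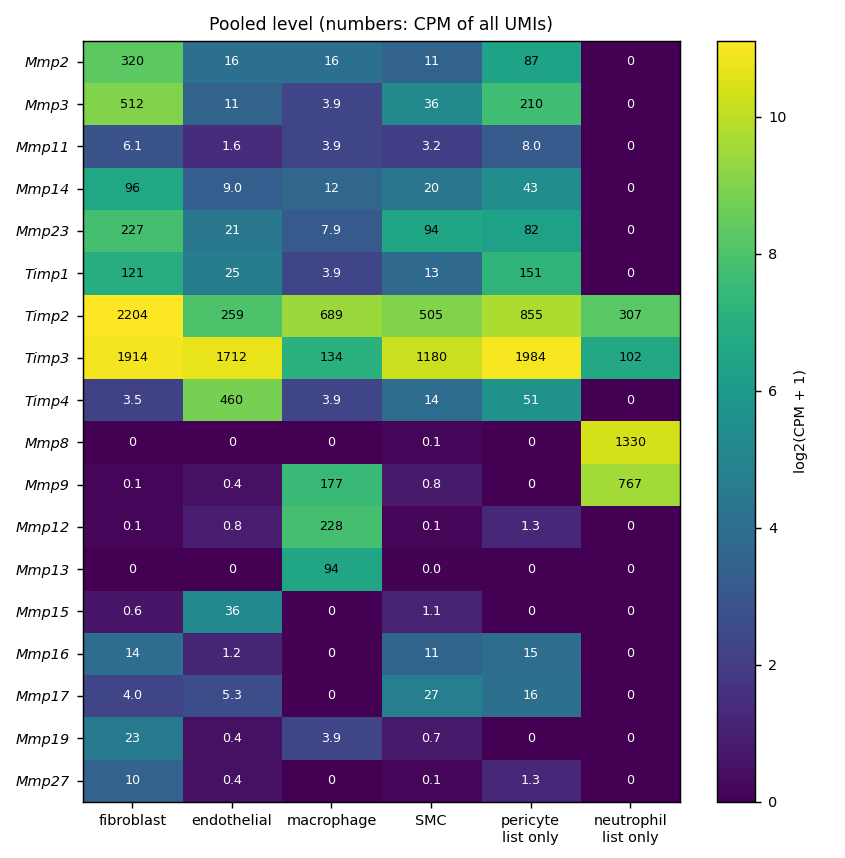
Pooled level of the 9 members and 9 other metalloproteinases in the 4 groups and in 2 small sets of barcodes outside them; colour is log2(CPM + 1) and the numbers are CPM. Among the 4 groups, 8 members lead in fibroblasts, Timp4 and Mmp15 in endothelial cells, Mmp9, Mmp12 and Mmp13 in macrophages and Mmp17 in SMC. Outside the 4 groups, barcodes with neutrophil markers had Mmp8 at 1329.9 CPM and Mmp9 at 767 CPM. Those with pericyte markers had Timp3 at 1984 CPM.

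Genes that activate, anchor or remove these enzymes were read from a list of 22. In fibroblasts over SMC, 14 of the 19 tested were higher and 3 lower, where 20.9% of all genes tested were higher and 18.0% lower. The highest were Efemp1, a fibulin that binds TIMP3 (5.18 ± 0.16, 427 CPM in fibroblasts and 11.3 CPM in SMC), the proprotein convertase Pcsk6 (4.55 ± 0.20) and urokinase Plau (3.83 ± 0.66). Among the lower ones were Serpine2 (-2.28 ± 0.15), a serpin that blocks plasminogen activators, and the convertase Pcsk5 (-1.13 ± 0.23). Each of these 5 had an edgeR adjusted p of 6.1e-05 or less.

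In endothelial cells over SMC, where 26.1% of all genes tested were higher and 25.5% lower, 6 of 19 tested were higher, led by Thbs1 (2.41 ± 0.30) and the sheddases Adam10 (2.36 ± 0.16) and Adam17 (1.69 ± 0.23), and 7 were lower, led by the scavenger receptor Lrp1 (-2.60 ± 0.17), Serpine2 (-2.41 ± 0.14) and the membrane inhibitor Reck (-1.89 ± 0.28). Within fibroblasts, 3 of 13 tested were higher and 3 lower on the Pi16 and Clec3b side, where 8.61% of all genes tested were higher and 6.73% lower. Pcsk6 (3.22 ± 0.27), tissue plasminogen activator Plat (2.34 ± 0.29) and Efemp1 (1.68 ± 0.18) were higher on the Pi16 and Clec3b side, the side with more Timp2 and Mmp14. Thbs1 (-3.52 ± 0.41), Cd63 (-0.76 ± 0.12), a tetraspanin that binds TIMP1, and Serpine2 (-0.75 ± 0.23) were lower there, as Mmp3, Timp1 and Timp3 were. On the Vwf side of endothelial cells, Thbs1 (4.02 ± 0.48), Efemp1 (3.80 ± 0.42) and Cd63 (1.78 ± 0.23) were highest of the 5 that were higher of 10 tested, where 12.8% of all genes tested were higher. In macrophages over SMC, where 14.4% of all genes tested were higher and 18.6% lower, 4 of 19 tested were higher, led by Plau (35.4 CPM in macrophages and 0.461 CPM in SMC), and 7 were lower, with Pcsk5 and Plat at 0 UMIs in macrophages, which allows up to 11.8 CPM.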

How the data were processed

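Ascending thoracic aortas of 3 mice were profiled by droplet sequencing with hashtag antibodies. The authors deposited 1 matrix of UMI counts, not normalized, which Cell Ranger 6.0.1 made per the file headers. Per the submitters' processing notes, build mm10 and Seurat 4.0.5 were used; the annotation, and whether strand was used, are not given in the sources used here. Levels are CPM of all gene UMIs of the barcodes summed.

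The members and gene lists were chosen with earlier results of these data known. All 9 members are named, and of the activators, anchors and inhibitors the 3 of largest change in each direction; 1 such gene is not reported here. Hashtags were called by HTODemux (Seurat 5.3.0, positive quantile 0.99), and barcodes with several hashtags, or in several cell groups, were left out; no doublet caller was run, so doublets of 1 animal and cell type remain. The second caller needs the top hashtag at least 4 SD above background and the next at most 2.

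Counts were summed per group and hashtag (74 to 121 fibroblasts, 129 to 217 endothelial cells, 15 to 27 macrophages and 394 to 524 SMC per sum; at least 10 were required) and tested with edgeR 4.0.16 (quasi-likelihood, TMM, low-count filter, hashtag as a block, all 4 groups in 1 fit), with Benjamini-Hochberg adjustment over all genes tested. Hashtags pair the sums because the sums of 1 hashtag come from the same animal; the correlations of their deviations lay between -0.02 and 0.04. Intervals are exact 95% Poisson or binomial ones, a count of 0 was given a limit of 3 counts, and both cover counting error only. Alternatives were DESeq2 1.42.0, no TMM, no filter, no block, fewer groups, each hashtag left out, other cell filters, doubled group thresholds and other hashtag callers. Without TMM the median of all genes moved by 0.22 (log2) for macrophages over SMC, 0.17 for macrophages over fibroblasts and 0.11 for endothelial cells over SMC.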

Additional observations from a re-analysis of the deposited data

Results flagged for a closer look

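The values below lie in barcodes outside the 4 groups, and each lies above the range of the gene in all 4 groups. Among 13 barcodes with neutrophil markers only, Mmp8, the neutrophil collagenase, had 52 UMIs or 1329.9 CPM (95% exact interval 993 to 1744). Mmp9 had 767 CPM (518 to 1095) and Mmp25 128 CPM (41.5 to 298) in the same barcodes. In the 623 barcodes of no group, Timp1 had 549 UMIs or 181 CPM (166 to 197), seen in 81 barcodes. Without the 1 barcode of 145 UMIs it had 134 CPM (121 to 148). With 3 hashtag samples per group, no test for a single outlying sample was made.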

How the results depend on the processing

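Over 66 tests of a member, 781 alternative values were computed. Of these, 746 kept their side of the threshold, 17 lost the call, 16 gained one and 2 turned with 1 of the 2 values called. Values that were not called could change sign within the 746. Timp4 in macrophages over fibroblasts did so, from 0.72 to -4.29 with 1 hashtag left out. Endothelial Timp1 against SMC was -1.45 without hashtag 2, which holds the barcode of 43 UMIs, up to 1.37 without hashtag 1 and 1.42 at 10% mitochondrial and 1000 UMIs. Mmp3 in Pln and Mgp rich against Tnnt2 and Ptprz1 rich SMC turned to -0.10 with the second hashtag caller, and the cause of this turn was not tested. Numbers of genes called moved most inside a group. At 10% mitochondrial and 1000 UMIs, endothelial cells over SMC gave 2380 genes in place of 4279, endothelial cells over fibroblasts 1919 in place of 3154, and the fibroblast sides 219 genes in place of 545 and 3 members in place of 5; too few macrophages and Vwf-side barcodes remained for a fit there. DESeq2 gave 233 genes and 3 members for the fibroblast sides, 466 genes for the endothelial sides in place of 969, and 56 genes for the SMC division in place of 194, where it gave no adjusted p for Mmp3 and Timp1. The second hashtag caller gave 184 genes for the fibroblast sides, and 64 genes and 0 members, in place of 2, for the SMC division. No haemoglobin filter gave 307 genes for the SMC division, and no low-count filter 4 members for the endothelial sides in place of 2, where more genes are tested. Leaving out 1 hashtag gave 1386 to 1851 genes for macrophages over fibroblasts, 1243 to 1667 for macrophages over endothelial cells, 223 to 440 for the fibroblast sides, 581 to 845 genes and 2 to 4 members for the endothelial sides, and 85 to 176 genes and 0 to 2 members for the SMC division. Without the hashtag block, fibroblasts over SMC gave 3336 genes in place of 3228 and the same number of members, 8; the block changed no call of a member. Macrophages (74 barcodes) and single-hashtag fibroblasts and SMC limit the depth of these tests.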

Other observations

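Other barcodes outside the 4 groups also held members. In 117 barcodes with pericyte markers only, Timp3 had 1984 CPM (95% exact interval 1885 to 2088), Timp2 855 CPM (790.0 to 924) and Timp1 151 CPM (125 to 182). Timp1 in these was above the 13.1 CPM of SMC, and Mmp3 was at 210.1 CPM (179 to 246) against 36.0 CPM in SMC. Timp4, highest in endothelial cells among the 4 groups, was at 50.8 CPM (36.0 to 69.8) in the pericyte barcodes and was seen in 23.9% of them. In 13 barcodes with mesothelial markers only, Timp2 had 1728 CPM (1420.0 to 2082) and Mmp23 173 CPM (86.2 to 309). In 51 T cell barcodes Timp3 had 286 CPM and in 35 B cell barcodes 159 CPM, both under the 384 CPM of barcodes under 500 genes. These sets pool the 3 animals and carry no test.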
